A study of Mus musculus with 4 samples.

Results

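Nonsense-mediated decay (NMD) is the surveillance route that degrades mRNAs on which translation ends too early, for example because an intron was left in or an exon was skipped. The helicase UPF1 is recruited to the terminating ribosome, is joined by UPF2 and by UPF3A or UPF3B, and is phosphorylated by the kinase SMG1, which SMG8 and SMG9 hold in check. Phosphorylated UPF1 then binds factors such as SMG5 and SMG6, which cut the mRNA or hand it to the deadenylation and decapping enzymes. In male germ cells UPF2 and SMG6 are known to be needed for spermatogenesis, and X-linked genes such as Upf3b are silenced during meiosis.

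The 9 genes described here are Upf1, Upf2, Upf3a, Upf3b, Smg1, Smg5, Smg6, Smg8 and Smg9, out of 36778 genes that had a row of their own in the count files. They were chosen by symbol as factors of the pathway, with earlier results of these data known, and each was matched to its Ensembl identifier. The RNA came from hCD4+ cells that had been pulled from mouse testes with magnetic beads at 20 days post partum (dpp), preparations that the study describes as mostly diplotene spermatocytes. The control mice were Tdrd6+/- and the mutant mice Tdrd6-/-, with 2 samples per genotype and RNA of at least 4 mice pooled in each sample. In both genotypes the hCD4 on the cell surface was driven by the Tdrd6 promoter, so the handle used for sorting belonged to the locus that was mutated, and the controls carried a mutant allele too. TDRD6 is a tudor domain protein of the chromatoid body, and the study asked whether its loss disturbs splicing. Since only pooled bulk RNA was sequenced, fewer cells of a type and less RNA per cell cannot be told apart.

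The controls had 33220 and 39322 counts on Tdrd6, against 359 and 400 for the mutants, so the libraries matched their labels. Gene counts summed to between 26454326 and 31388750 per sample, and intronic counts to between 9603669 and 13937818. Tdrd6-/- replicate 2 stood apart, with 21.9% of its tallied fragments on introns against 27.1% to 30.95% in the other 3 samples. Markers of spermatocytes had the highest sums in every library, at 7881 to 8150 summed CPM (counts over the TMM-scaled size of the library) in Tdrd6+/- and 8156 to 9276 in Tdrd6-/-, with 9 of 10 tested, Sycp1 higher and Piwil1 lower in Tdrd6-/-. Most of that sum was Ldhc and Hspa2, at means of 3741 and 2156 CPM in Tdrd6+/-, so the sums of different lists do not measure shares of cells. Markers of spermatids summed to 14.5 to 21.7 CPM in Tdrd6+/- and 29.2 to 32.6 in Tdrd6-/- (2 of 4 tested genes were higher). Prm1, Prm2, Tnp1 and Tnp2 of that list were too low to be tested. Those of spermatogonia and early meiosis summed to 23.5 to 24.3 and 28.4 to 32.5, with 0 of 8 genes passing the edgeR test used below. Those of Sertoli cells summed to 54.5 to 61.7 and 69.0 to 69.6, with 0 of 7 passing and Sox9 going the other way (log2 fold change -0.78). Leydig, peritubular and macrophage markers lay between 2.999 and 9.93 CPM in all samples, no listed marker was at 0 in all samples, and the part of these cells in the results below was not tested.

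Some of the members are made in more than one form, and the sequences that tell the forms apart are shown first. All were read from GENCODE M21 transcripts on GRCm38, the build of the files, 5′ to 3′ on the strand of the gene. Upf1 has a pair of donor sites at the end of one coding exon, 33 bases apart (chr8:70339982-70340014, minus strand). Mouse UPF1 is known to occur with a longer and a shorter regulatory loop in its helicase domain, and the bases in capitals are those that only the longer transcript keeps:
Upf1 with the extra bases: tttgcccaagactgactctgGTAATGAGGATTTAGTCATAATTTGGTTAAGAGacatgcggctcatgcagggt
Upf1 without them: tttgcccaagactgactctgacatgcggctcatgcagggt

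Upf2, the adaptor between UPF1 and the UPF3 proteins, has 2 acceptor sites 3 bases apart at one coding exon (chr2:6046898-6046900, plus strand), again with the bases in question in capitals:
Upf2 outer acceptor: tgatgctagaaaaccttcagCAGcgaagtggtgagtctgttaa
Upf2 inner acceptor: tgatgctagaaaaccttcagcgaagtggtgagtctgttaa

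The members were expressed at very different levels, from 7 to 814 mean CPM in Tdrd6+/-. Per kb of exon, which allows genes to be compared, Smg9 was highest at 134 ± 14.4 CPM per kb (SD, n = 4 samples), followed by Upf3a at 113 ± 5.41, Smg5 at 101 ± 3.89, Upf1 at 64.9 ± 14.2, Smg1 at 43.2 ± 11.1, Smg6 at 40.4 ± 2.54, Upf2 at 23.0 ± 5.25, Smg8 at 11.04 ± 0.550 and Upf3b at 3.21 ± 0.484. Each SD spans both genotypes, so it includes any difference between them. Upf1 was at 76.8 ± 6.1 in Tdrd6+/- and 53.0 ± 1.7 in Tdrd6-/-. In the same order Smg1 was at 52.3 ± 2.3 and 34.0 ± 5.5, and Upf2 at 27.4 ± 0.15 and 18.6 ± 2.2. Smg1 and Smg6 were the one pair of neighbours whose order was not the same in all samples, since Smg1 was above Smg6 in 2 of 4, the Tdrd6+/- samples. Upf3a and Smg5 kept their order in 4 of 4 samples, although their ranges overlapped in Tdrd6+/-. With the union of all annotated transcripts as the length, the order of the lower members was kept, but Upf3a moved from the second to the fourth place at 39.5 CPM per kb.

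UPF3A and UPF3B are alternative partners of UPF2. Upf3a (ENSMUSG00000038398, chr8:13785615-13799193, plus strand) had 5644 and 6599 counts in Tdrd6+/- and 7606 and 7487 in Tdrd6-/-. Its X-linked paralog Upf3b (ENSMUSG00000036572, chrX:37091678-37110322, minus strand) had 193 and 187 counts in Tdrd6+/- and 290 and 219 in Tdrd6-/-, the lowest of the 9 genes. Per kb, Upf3a exceeded Upf3b 33.3 and 40.2 times in Tdrd6+/- and 29.9 and 38.95 times in Tdrd6-/-, and the genotypes overlapped (two-sided exact permutation test, p = 0.667, where 2 samples against 2 cannot give less than 0.333). The ratio was smaller with the union of all annotated transcripts as the length. The means over all samples were then 39.5 CPM per kb for Upf3a and 1.88 for Upf3b.

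**Figure D1:**
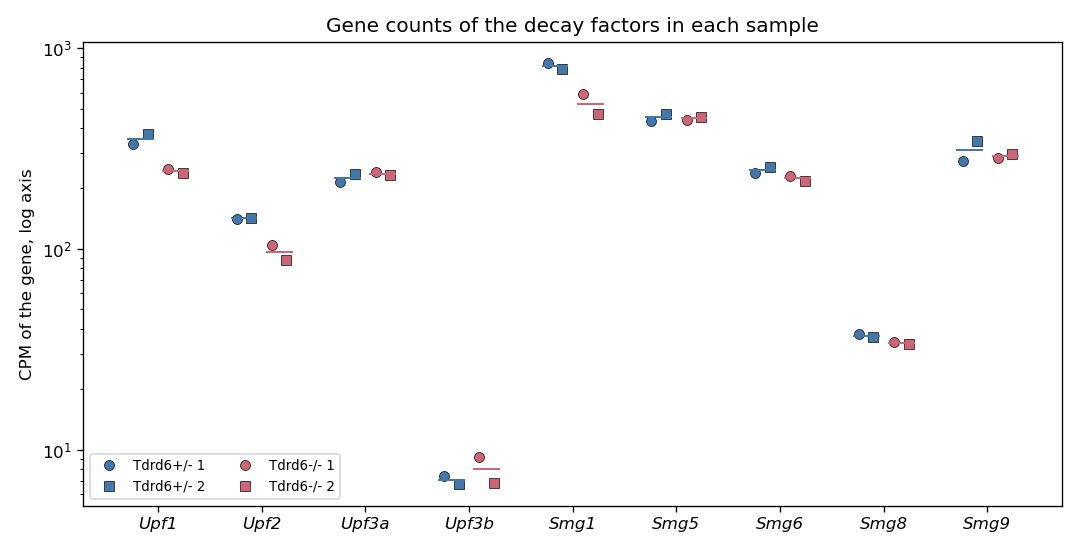
CPM of the gene (log axis) of the 9 members, with Tdrd6+/- in blue, Tdrd6-/- in red, circles for replicate 1, squares for replicate 2 and lines for the mean of each genotype. For Upf1, Upf2 and Smg1 both Tdrd6-/- samples lie well below both Tdrd6+/- samples, and Upf3b is the lowest gene in every sample.

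Gene expression was compared between genotypes with edgeR's quasi-likelihood test over all 16555 genes that passed the filter on low counts, and a change was called at a Benjamini-Hochberg adjusted p under 0.1. Upf1, Upf2 and Smg1, which are the helicase, its activator and its kinase, fell in Tdrd6-/- cells to between 65.0% and 69.0% of the Tdrd6+/- level. The other 6 members did not pass the test. Among all genes 4.80% were called in either direction and 3.78% were lower in Tdrd6-/-, against 3 of 9 members lower and 0 higher. The median log2 fold change was -0.12 over the members and 0.01 over all genes tested. The median SE was 0.135 over the members and 0.221 over all genes, so a change of a given size was easier to call in a member. The members were also chosen with earlier results of these data known.

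Upf1 (ENSMUSG00000058301, chr8:70331525-70353278, minus strand) had 8761 and 10436 counts in Tdrd6+/- and 7915 and 7654 in Tdrd6-/-, or 335 and 375 against 250 and 239 CPM. The samples of the genotypes did not overlap, and the log2 fold change was -0.54 (SE 0.129, adjusted p = 0.0214 from edgeR). Upf2 (ENSMUSG00000043241, chr2:5951469-6056703, plus strand) had 3702 and 3970 counts against 3297 and 2825, or 141 and 143 against 104 and 88.3 CPM. Again both mutant samples were below both controls, with a log2 fold change of -0.56 (SE 0.135, adjusted p = 0.0209 from edgeR). Smg1 (ENSMUSG00000030655, chr7:118131308-118243670, minus strand), by CPM the most abundant member in the controls, had 21974 and 21964 counts against 18649 and 15002, or 839 and 789 against 590 and 469 CPM. Its log2 fold change was -0.62 (SE 0.137, adjusted p = 0.0120 from edgeR), and Tdrd6-/- replicate 2 was the lower of the mutant samples for all 3 genes.

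The 3 calls were lost without Tdrd6-/- replicate 2, the sample low in intronic counts. Without it the log2 fold changes were -0.49 for Upf1, -0.44 for Upf2 and -0.46 for Smg1, and 0 of 9 members passed edgeR's test (adjusted p = 0.341, 0.525 and 0.404), while the calls over all genes dropped from 794 to 257. Without Tdrd6-/- replicate 1, Upf2 and Smg1 were called and Upf1 was at adjusted p = 0.109 from edgeR.

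SMG8 and SMG9, the partners that restrain SMG1 in its complex, were not called. Smg8 (ENSMUSG00000020495, chr11:87077732-87086774, minus strand) had 984 and 1014 counts in Tdrd6+/- and 1085 and 1082 in Tdrd6-/-, a log2 fold change of -0.12 (SE 0.152, adjusted p = 0.816 from edgeR). Smg9 (ENSMUSG00000002210, chr7:24399619-24422778, plus strand) had 7160 and 9655 counts against 9009 and 9488, a log2 fold change of -0.09 (SE 0.136, adjusted p = 0.849 from edgeR). In CPM both Tdrd6-/- samples of Smg9 lay between its Tdrd6+/- samples, while those of Smg8, at 34.3 and 33.8, lay below its controls at 37.6 and 36.4. Whether the change of Smg1 differed from that of Smg8 or Smg9 was not tested.

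Of the factors that act after UPF1 is phosphorylated, neither of the members was called. Smg5 (ENSMUSG00000001415, chr3:88336260-88362338, plus strand), an adaptor for mRNA decay, had 11331 and 13151 counts in Tdrd6+/- and 13921 and 14528 in Tdrd6-/-, a log2 fold change of -0.02 (SE 0.128, adjusted p = 0.976 from edgeR). Smg6 (ENSMUSG00000038290, chr11:74925823-75164448, plus strand), the endonuclease, had 6267 and 7090 against 7331 and 7010, a log2 fold change of -0.13 (SE 0.128, adjusted p = 0.734 from edgeR). In CPM the Smg6 samples did not overlap, at 239 and 255 against 232 and 219. With 2 samples against 2, such a separation has p = 0.333 in an exact permutation test.

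For Upf3a the log2 fold change was 0.07 (SE 0.128, adjusted p = 0.884 from edgeR), and for Upf3b it was 0.19 (SE 0.230, adjusted p = 0.810 from edgeR). The wider error of Upf3b goes with its low count. Exons of Upf1 and Smg6 overlap annotated genes on the opposite strand (Cers1 and Gdf1, and Srr and Gm12333), and although the library kit kept the strand, whether the counting used it is not given in the sources used here.

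**Figure D2:**
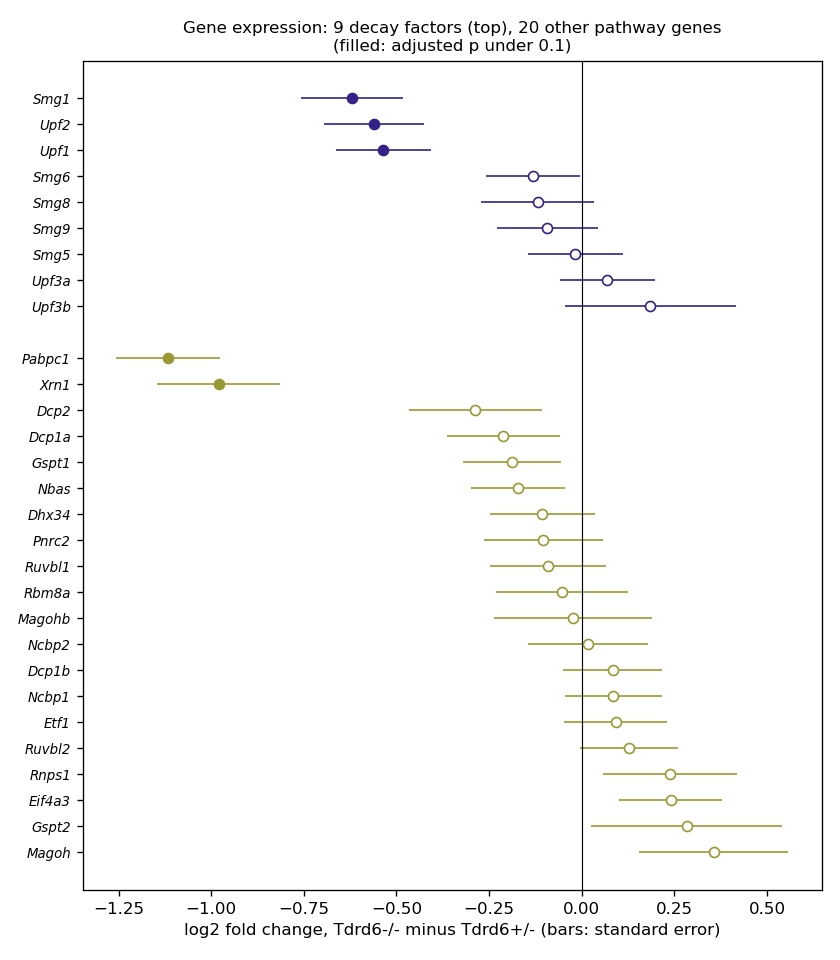
Log2 fold change (Tdrd6-/- minus Tdrd6+/-) of the 9 members (top) and 20 other genes of the pathway (bottom), with the standard error as the bar and filled points for adjusted p under 0.1 in edgeR. Smg1, Upf2 and Upf1 lie between -0.62 and -0.54, the other members between -0.13 and 0.19, and Pabpc1 and Xrn1 are the filled points of the lower group.

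The rest of the pathway was taken from a list of 22 genes that bring UPF1 to the mRNA, mark exon junctions, end translation or carry out decay. Of these 20 could be tested, and 2 were lower in Tdrd6-/-, against 3.78% of all genes, while 0 were higher. The median log2 fold change was -0.04, with 11 of 20 below 0. The 2 were Pabpc1 and Xrn1. Pabpc1, the poly(A) binding protein that opposes NMD at normal stop codons, had 61285 and 82015 counts in Tdrd6+/- and 40381 and 37180 in Tdrd6-/- (log2 fold change -1.12, SE 0.140, adjusted p = 4.56e-05 from edgeR). Xrn1, the exonuclease that degrades decapped mRNA, had 1145 and 1233 counts against 795 and 623 (log2 fold change -0.98, SE 0.166, adjusted p = 0.00110 from edgeR). None of the exon junction genes that could be tested (Eif4a3, Magoh, Magohb, Rbm8a and Rnps1) was called, with log2 fold changes from -0.05 to 0.36.

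A second list held 15 transcripts that are widely used as readouts of NMD activity because the pathway degrades them. Of the 7 that could be tested (Atf4, Ddit3, Gadd45a, Gadd45b, Cdkn1a, Tbl2 and Ern1), 0 were called in edgeR, against 4.80% of all genes. In the same test 0 had an unadjusted p under 0.05, and their median log2 fold change was -0.04. The summed level of the listed transcripts with a row of their own was 356 to 366 CPM in Tdrd6+/- and 343 to 355 CPM in Tdrd6-/-. Most of that sum was Tbl2, at a mean of 246 CPM in Tdrd6+/- and 239 CPM in Tdrd6-/-. Cdkn1a, with 7 to 14 counts per sample, and Gadd45a, with 10 to 25, were too low for any but a large change to be called. Gas5, Snhg12 and Snhg15 shared their rows with overlapping genes and were not tested.

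The lower counts of the 3 members ran through nearly the whole of each gene. An exon segment is a stretch of exon that all overlapping transcripts use alike. All 24 segments of Upf1 were lower in both Tdrd6-/- samples than in both Tdrd6+/- samples, as were 25 of 28 in Upf2 and 69 of 73 in Smg1, against 25.1% of the 208050 segments of all genes. The median log2 ratio of the segments was -0.58 in Upf1, -0.54 in Upf2 and -0.63 in Smg1. In Smg6 18 of 26 segments were lower, in Smg8 3 of 6, in Smg5 4 of 22, in Smg9 3 of 26, in Upf3b 1 of 14 and in Upf3a 0 of 9. Segments of 1 gene share fragments and are not independent.

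The 5′ ends were singled out after the values were seen, since the 4 segments of Smg1 that were not lower were among its first 5. The first 5 had log2 ratios of 0.39, 0.01, -0.27, 0.30 and -0.10. The 2 highest ratios rest on few counts. The first segment had 11 and 5 in Tdrd6+/- and 15 and 10 in Tdrd6-/-, and the fourth had 7 and 11 against 14 and 12. The second segment had 159 and 146 counts in Tdrd6+/- and 196 and 167 in Tdrd6-/-. Its share of the gene count was 0.724% and 0.665% against 1.05% and 1.11%, so the genotypes did not overlap, but the usage test gave adjusted p = 0.181 (DESeq2 likelihood ratio test, log2 fold change 0.64, SE 0.188). In Upf2 the first segment had 12, 13, 22 and 15 counts in the same order of samples, and the first junction had 4, 5, 15 and 10. In Upf1 the first 3 segments had log2 ratios of -0.25, -0.33 and -0.41, all above the median of the gene, but so was its last segment at the 3′ end, at -0.37. A first segment above the median of its gene was not particular to the called genes. It was at 0.10 against a median of -0.20 in Smg6, 0.003 against -0.16 in Smg8 and 0.82 against 0.27 in Upf3b. In Smg5 the values were nearly equal, at -0.015 against -0.016.

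**Figure D3:**
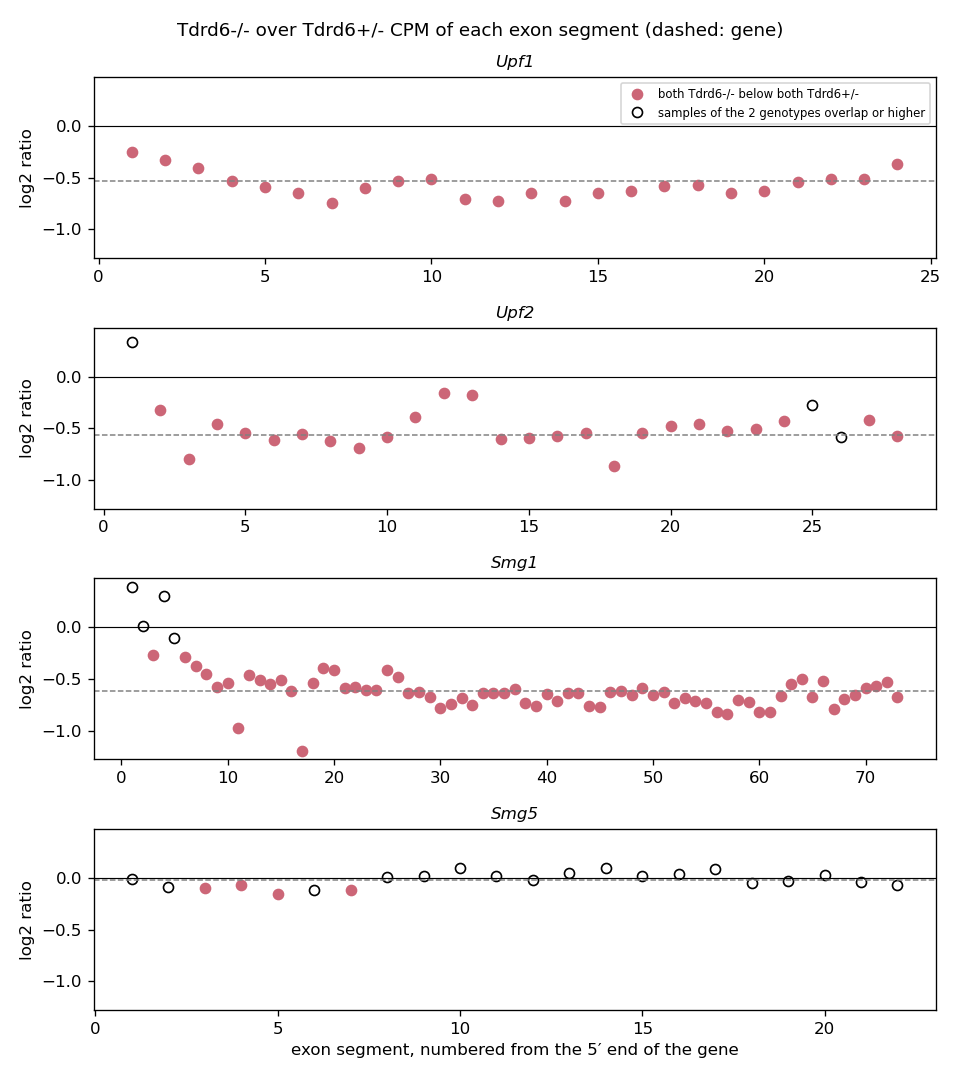
Log2 ratio of Tdrd6-/- to Tdrd6+/- CPM for each exon segment, counted from the 5′ end, in Upf1, Upf2, Smg1 and, for comparison, Smg5. Red points are segments for which both Tdrd6-/- samples were below both Tdrd6+/- samples, open points the rest, and the dashed line is the log2 fold change of the gene. Most points of Upf1, Upf2 and Smg1 lie near their dashed lines, with exceptions at the 5′ end and at single segments further in, and those of Smg5 lie around 0.

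What these 3 genes have before their start was read from RefSeq promoter windows, since they moved in the same direction. The 250 bases before the RefSeq start of each member were searched on both strands for GGGCGG (the GC box), TATAAA (the TATA box), GCATGCGC (bound by NRF1), CCGGAAGT (bound by ETS factors) and CACGTG (an E-box). GGGCGG was found in 7 of 9 members (all but Smg5 and Smg8) and in 32.7% of the 32817 windows of all genes. GCATGCGC was found in Upf1 and in 2.25% of all windows, as 1 stretch that holds these letters once on each strand. TATAAA, CCGGAAGT and CACGTG were found in 0 of 9 members and in 12.4%, 2.88% and 6.02% of all windows. GC made up 72.8% of the Upf1 window, 64.0% of the Upf2 window and 70.8% of the Smg1 window, and 50.8% to 70.4% of the windows of the members that were not called (70.4% in Smg6 and 67.2% in Upf3a), against a median of 52.4% over all windows. The windows are shown on GRCm38.p6 (chr8:70353280-70353529, minus strand, chr2:5951219-5951468, plus strand, and chr7:118243671-118243887, minus strand) with all motif matches in capitals, and the Smg1 window leaves out the bases that lie within the annotated gene:
Upf1 upstream: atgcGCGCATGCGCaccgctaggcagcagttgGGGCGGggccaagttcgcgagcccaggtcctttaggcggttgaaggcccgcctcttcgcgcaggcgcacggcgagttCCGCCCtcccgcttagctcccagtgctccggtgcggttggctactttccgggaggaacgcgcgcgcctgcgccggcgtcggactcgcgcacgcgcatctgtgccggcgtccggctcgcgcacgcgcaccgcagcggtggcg
Upf2 upstream: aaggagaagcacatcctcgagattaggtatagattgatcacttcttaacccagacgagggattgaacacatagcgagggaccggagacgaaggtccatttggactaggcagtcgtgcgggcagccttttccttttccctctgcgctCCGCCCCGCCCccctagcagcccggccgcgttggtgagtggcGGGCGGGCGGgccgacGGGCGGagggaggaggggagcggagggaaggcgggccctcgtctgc
Smg1 upstream: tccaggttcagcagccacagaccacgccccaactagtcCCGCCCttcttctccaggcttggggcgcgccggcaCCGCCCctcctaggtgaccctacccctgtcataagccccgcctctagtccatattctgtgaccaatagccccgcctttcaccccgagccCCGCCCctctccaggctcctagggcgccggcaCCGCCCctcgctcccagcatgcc

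Splicing of the members was examined in 3 ways, and no member was called in any of them. For intron usage, the share that 1 intron holds of the intronic counts of its gene, 53 of 184 member introns passed the filter and 0 were called, against 2.17% of all introns tested. No intron of Smg8 or Upf3b passed, so neither gene could be called by this test. Unadjusted, 4 of the 53 had a p under 0.05 in the DESeq2 test, 3 of them in Smg6. With edgeR's usage test 0 were called, but it called very few introns over all genes, so it could hardly have called a member. For exon segments and junctions, 367 of 431 passed and 0 were called, against 0.221% of all, with 13 at an unadjusted p under 0.05 in DESeq2. The share of all features with such an unadjusted p is not given here, so these counts are not read as changes in the members. In Upf3b only 1 exon segment and no junction passed. With edgeR's test, which called fewer exon segments and junctions over all genes than DESeq2, 0 were called. For the intron-to-gene ratio, the intronic counts of a gene over its gene count, 0 of 9 members were called against 1.67% of all genes in limma. With shares this low over all features, 0 calls in sets of this size do not set the members apart from other genes.

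The smallest p among the introns belonged to the first intron of Smg6 (chr11:74926004-74928992). It had 256 and 260 counts in Tdrd6+/- and 317 and 290 in Tdrd6-/-, or 3.40% and 3.73% against 4.39% and 6.94% of the intronic counts of the gene. Its log2 fold change in usage was 0.66 (SE 0.229, adjusted p = 0.138 from DESeq2). With the replicate number as a block it passed (adjusted p = 0.0637 from DESeq2), as it did without Tdrd6-/- replicate 1 (log2 fold change 1.02, adjusted p = 0.00447 from DESeq2), where the fourth and fourteenth introns of Smg6 were called too. Without Tdrd6-/- replicate 2 the log2 fold change was 0.31 and the adjusted p 1.0 from DESeq2, and over the settings that left out 1 sample or changed the processing the adjusted p ran from 0.00447 to 1.0. The largest intron of Smg6 (chr11:75053964-75132434) held 42.8% and 42.2% of its intronic counts in Tdrd6+/- and 43.3% and 39.4% in Tdrd6-/-.

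In Smg9 the segment with the smallest p was 1 of 640 bases (chr7:24407634-24408273) next to its most counted intron. It had 77 and 71 counts in Tdrd6+/- and 44 and 46 in Tdrd6-/-, or 1.08% and 0.735% against 0.488% and 0.485% of the gene count. Its log2 fold change in usage was -0.88 (SE 0.309, adjusted p = 0.530 from DESeq2). In Upf3a the third intron (chr8:13787472-13791881) held 20.9% and 17.6% of the intronic counts in Tdrd6+/- and 15.4% and 13.9% in Tdrd6-/- (log2 fold change -0.47, SE 0.231, adjusted p = 0.425 from DESeq2).

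Before any centring, the intronic counts of Upf1, Upf2 and Smg1 set against the gene count overlapped between genotypes. Upf1 had 29.2 and 24.5 intronic counts per 100 gene counts in Tdrd6+/- and 26.6 and 26.0 in Tdrd6-/-, and the genotypes overlapped. Upf2 had 73.9 and 61.7 against 78.0 and 60.0, and Smg1 had 20.2 and 17.8 against 20.2 and 18.0. In the median gene the values were 67.2 and 60.8 against 60.4 and 45.3, so the libraries themselves differed. Once each sample was centred on its own median, the log2 change of the ratio was 0.26 for Upf1 (-0.02 without centring), 0.31 for Upf2 and 0.30 for Smg1, with adjusted p = 0.560, 0.442 and 0.510 from limma. These centred changes were not called, but they stayed above 0 whichever sample was left out. They ran from 0.080 to 0.46 for Upf1, 0.26 to 0.37 for Upf2 and 0.18 to 0.43 for Smg1. The centred changes of Smg8 (0.11 to 0.39) and Upf3b (0.022 to 0.19) stayed above 0 too, while that of Smg6 stayed below 0 (-0.36 to -0.053). Since the uncentred values of Upf1, Upf2 and Smg1 overlapped between genotypes, the size of their centred changes rests largely on the centring. Smg6, like the median gene, was lowest in Tdrd6-/- replicate 2, with 120 and 98.4 against 98.6 and 59.6, and a log2 change of the centred ratio of -0.22 (SE 0.198, adjusted p = 0.7004 from limma).

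**Figure D4:**
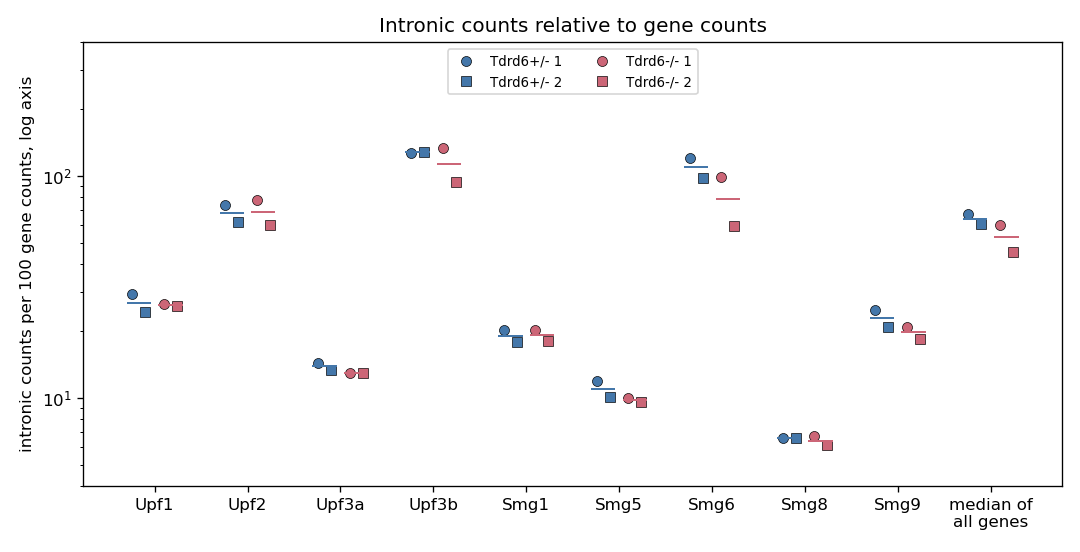
Intronic counts per 100 gene counts (log axis) for the 9 members and the median of 12413 genes, with the samples marked as in the plot of gene counts and lines for the mean of each genotype. The median gene is lowest in Tdrd6-/- replicate 2 at 45.3, while the values of Upf1, Upf2 and Smg1 overlap between genotypes.

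The alternative forms shown above were counted from their junctions, where Wilson 95% intervals cover counting error only. In Upf1 the annotated junction at the paired donors had 22 and 43 counts in Tdrd6+/- and 25 and 13 in Tdrd6-/-, while its neighbours had 240 to 308 and 170 to 251. The only unannotated junction of the gene had 199 and 227 against 168 and 150, and both junctions together came to 77.4% to 93.2% of the mean of the neighbours. The files give no coordinates, so that the unannotated junction uses the other donor is an inference from these counts and from the annotation. Which of the annotated transcripts the study's gene model held could not be told from the number of features, and the annotated junction is the longer form only if it was the transcript with the extra bases. The annotated junction made up 9.95% (6.67 to 14.6) and 15.9% (12.0 to 20.8) of both junctions in Tdrd6+/- and 13.0% (8.93 to 18.4) and 7.98% (4.72 to 13.2) in Tdrd6-/-. The samples of the genotypes overlapped, and the means differed by -2.48 percentage points (two-sided exact permutation test, p = 0.667, the smallest possible being 0.333).

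In Upf2 the inner acceptor had 11 and 14 counts against 10 and 15, and the outer one 73 and 96 against 75 and 64. The inner acceptor thus made up 13.1% (7.47 to 21.9) and 12.7% (7.74 to 20.2) in Tdrd6+/- and 11.8% (6.52 to 20.3) and 19.0% (11.9 to 28.99) in Tdrd6-/-, and the genotypes overlapped (exact permutation test, p = 1.0). At a similar pair of acceptors in Upf2, one annotated junction had 27, 40, 21 and 20 counts and the other 0 in all samples, beside 91, 105, 94 and 78 on the next junction. The unannotated junction of Upf2, which the files do not place, had 32, 37, 27 and 27. In Smg9 the first of 2 competing 5′ junctions had 56 and 76 counts in Tdrd6+/- and 80 and 97 in Tdrd6-/-. That was 14.0% and 12.4% of both junctions against 13.8% and 15.2%, a difference of 1.33 percentage points (exact permutation test, p = 0.667). In Smg6 3 of 22 annotated junctions were at 0 in all samples.

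**Figure D5:**
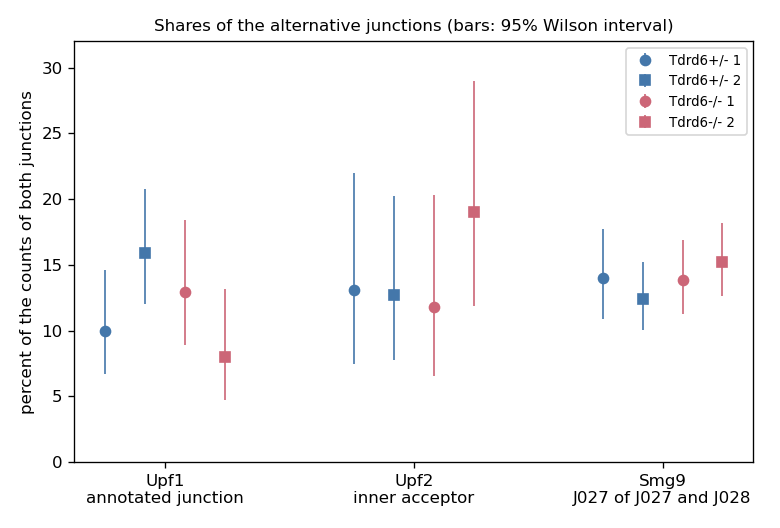
Share of the less used junction among the counts of both competing junctions in Upf1, Upf2 and Smg9, in percent, for each sample with its Wilson 95% interval, blue for Tdrd6+/- and red for Tdrd6-/-. The intervals of the samples overlap within each gene.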

How the data were processed

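Total RNA of hCD4+ cells from 4 samples (2 Tdrd6+/- and 2 Tdrd6-/-) was depleted of ribosomal RNA, made into directional libraries and sequenced as paired-end fragments, and bcl2fastq 1.8.4 is among the tools in the submitters' processing notes. The authors used GSNAP and mm10 (GRCm38) for the alignment and Ensembl release 75 as the gene models, and deposited raw counts per gene, exon segment and junction and, separately, per intron. Fragments can count on several segments of a gene. The counting program is not given in the sources used here. Groups were taken from the sample titles. Replicates are pools of mice, and p-values measure the spread between these pools. Features were placed on GENCODE M21 of the same build where the numbers of exon segments, junctions and introns matched, which held for all members except Smg1.

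Gene counts that passed filterByExpr were scaled by TMM and compared by the quasi-likelihood test of edgeR 4.0.16. Intron usage and exon and junction usage were tested with the DEXSeq and JunctionSeq models fitted in DESeq2 1.42.0 in R 4.3.3 (at least 10 counts in total, then independent filtering at a mean count of 95.2 for introns and 53.4 for exon segments and junctions). The log2 ratio of intronic to gene counts (pseudocount 0.5, at least 50 counts of each) was tested with limma 3.58.1 after centring each sample on its median. All p-values were adjusted over all features at a false discovery rate of 0.1. Shares were compared with exact permutation tests over samples. CPM values were scaled by TMM, and levels per kb used the exons of the basic transcript set. The scripts were tested on simulated counts. The depth per sample is given with the results.

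The members and lists were chosen with earlier results of these data known. For each member the intron and the exon segment or junction with the smallest p and the intron with the largest share could be named, and other pathway genes where called. An item of that list is not reported here. Alternatives were another test, scaling, filter, pseudocount, reference for intron usage and length, the replicate block and leaving out each sample. Same-numbered samples did not deviate together (correlation -0.117 over 12347 genes), so the main tests used no block.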

Additional observations from a re-analysis of the deposited data

How the results depend on the processing

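The calls of Upf1, Upf2 and Smg1 were made in all settings that kept 4 samples (DESeq2, DESeq2 size factors, a filter of 10 counts, and the replicate block with 3 members called and 1046 genes in all against 794). Leaving out samples gave 0 to 3 called members in gene expression and 257 to 1064 called genes, and 0 to 3 called member introns, with 4 to 1169 called introns among all against 574. With the replicate block 1 member intron was called, the first of Smg6, among 881 in all. Pairing the replicate numbers crosswise, chosen after seeing the data, gave 1175 called genes. The replicate block changed no other call of a member. Over all introns edgeR's usage test called 2, a filter of 50 counts without independent filtering 311 and the gene count as the reference 1266, and over all exon segments and junctions edgeR's test called 72 against 327 and leaving out samples 51 to 765. For the ratio, a block gave 440 against 207 called genes, a filter of 10 counts 41 and leaving out samples 80 to 907. Without centring 211 of 217 called genes were lower in Tdrd6-/-, against 127 of 207 with it. Without centring the log2 change of the ratio turned negative in Upf1 (-0.025), Upf3a (-0.10), Upf3b (-0.19), Smg5 (-0.16), Smg8 (-0.045) and Smg9 (-0.22). Leaving out samples turned the sign of log2 fold changes that were not called, from -0.067 to 0.049 in Smg5, -0.24 to 0.091 in Smg9 and -0.041 to 0.39 in Upf3b for gene expression, and from -0.018 to 0.41 in Upf3a, -0.047 to 0.31 in Smg5 and -0.040 to 0.20 in Smg9 for the ratio. It moved the difference in junction share from -5.46 to 0.51 percentage points in Upf1, -1.15 to 6.08 in Upf2 and 0.55 to 2.11 in Smg9. The cause was not tested. With 2 samples per genotype the error is estimated from few values, and most member introns were under the mean count that independent filtering set.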
